A study of Arabidopsis thaliana with 18 samples.

Results

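The overexpression line SnRK1α1-OE was compared with its wild type Col-0 at 2 times, night's end (EN) and day's end (ED), and the quantity described here is how far the effect of the line differed between these time points. SnRK1 is a conserved protein kinase of plants, related to yeast SNF1 and animal AMPK, that is active when carbon and energy run short and is restrained by sugars and sugar phosphates such as trehalose 6-phosphate. In a leaf the supply of carbon changes with every day and night: sugars and starch are high at ED, and at EN the starch made during the day has nearly all been used. Many transcripts that respond to SnRK1 are low at ED and high at EN. SnRK1α1 is the main catalytic subunit of the kinase in leaves.

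The data come from 12 libraries of whole rosettes, 3 for each of SnRK1α1-OE at EN, Col-0 at EN, SnRK1α1-OE at ED and Col-0 at ED. EN was zeitgeber time (ZT) 24 h and ED was ZT 12 h, counted from lights on. The plants were 20 days old and were grown on soil in equal days and nights with no treatment. The overexpression line carries a 35S::SnRK1alpha1 transgene in the Col-0 background, so its promoter drives the kinase in most tissues, and a single line was used. Each library came from a pool of several rosettes. For each gene the difference was computed as (SnRK1α1-OE minus Col-0 at EN) minus (SnRK1α1-OE minus Col-0 at ED), on log2 of the deposited value plus 1. A positive difference therefore means that the line stood higher against Col-0 at EN than at ED, and it equally means that the change from ED to EN was more positive in the line than in Col-0. Of 32833 genes in the table, 20041 had a value of at least 10 in 3 or more of the 12 libraries, and these were tested together. The series holds 6 further libraries of another mutant, which were not used in the comparison.

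The values are normalized read numbers scaled to a common total, and library sums ran from 37929620 to 37930210. Reads per library were not recovered here, and the depth behind a value is therefore not known. The 5 leaf markers were high in every library, and their summed value at EN ran from 1734656 to 2074843 for SnRK1α1-OE and from 1688205 to 2119207 for Col-0. At ED it ran from 1176789 to 1370944 for SnRK1α1-OE and from 1028581 to 1167575 for Col-0. Of 7 root markers, 3 passed the filter, as did 3 of 10 markers of shoot apex and flower and 0 of 3 seed markers. SnRK1α1 itself (AT3G01090) had values of 29575, 29352 and 28713 in SnRK1α1-OE, against 1961, 1883 and 1991 in Col-0 at EN. The ED values were 32681, 29302 and 30494 in SnRK1α1-OE, against 1740.0, 1707 and 1685 in Col-0. The line thus held far more of the transcript at either time, and the difference between the effects was −0.26 ± 0.11 (SE, adjusted p = 0.214), which did not pass the threshold. AT3G01100 lies in the annotation over part of this gene.

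The difference between the effects of SnRK1α1-OE at EN and ED was called for 42 of 20041 genes at an adjusted p under 0.05 (0.21% of the genes tested). Of these, 29 had a positive difference (0.145%) and 13 a negative one (0.0649%). Each difference contains the effect at ED, which cannot be told apart from what the sample numbers described below mark. The genes with a positive difference were mostly lower in the line than in Col-0 at ED, with fitted values somewhat above Col-0 at EN. They include an enzyme and a transporter of methionine-derived glucosinolates, methionine synthase, the first enzyme of serine synthesis, cell wall proteins, and receptors and transcription factors of vascular development. The genes with a negative difference were higher in the line at ED, with fitted values somewhat below Col-0 at EN, and include the regulators ERF107 and BT2, the growth-related genes SAUR20 and GASA6, and several genes of unknown function. The sign of the difference itself favours these arrangements, and nothing is read from how often they occurred. In 27 of the 29 positive genes the fitted effect was below 0 at ED and above 0 at EN (42.3% of all genes tested). In all 13 negative genes the fitted effect was above 0 at ED and below 0 at EN (21.5% of all genes tested). AT1G71360 and ARP9 were the exceptions among the positive genes, since both were higher in the line at either time.

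**Figure D1:**
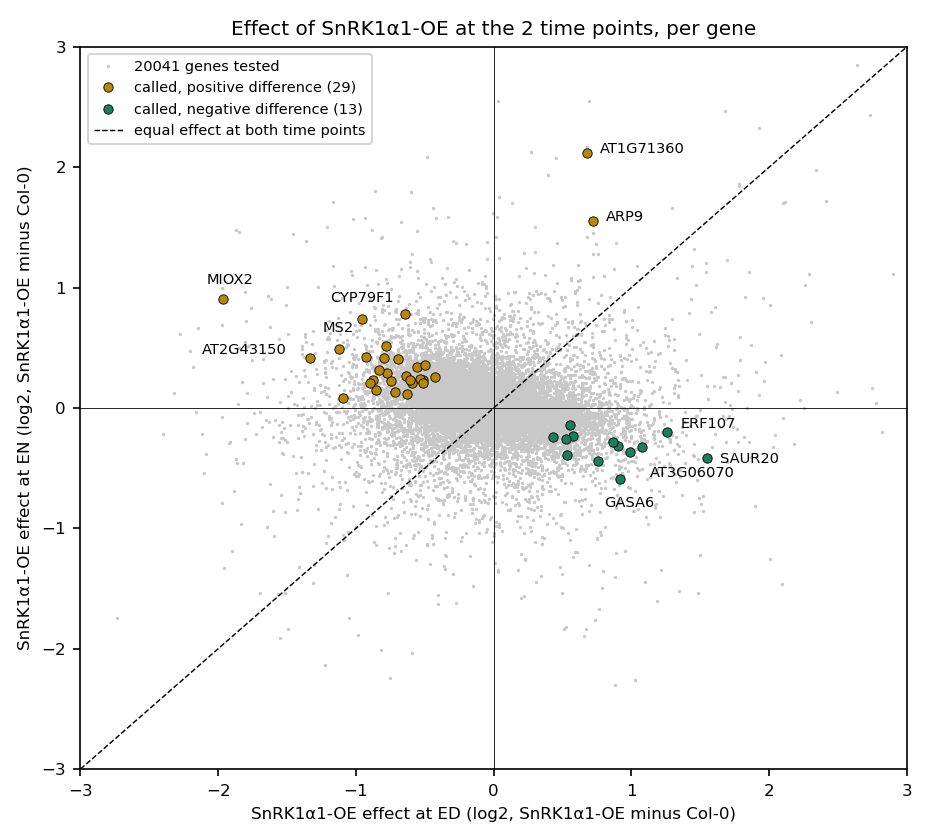
Effect of SnRK1α1-OE at ED (horizontal axis) and at EN (vertical axis), both as log2 SnRK1α1-OE minus Col-0, for 20041 genes (grey, with 13 genes outside the plotted range) and for the 42 genes called for the difference (coloured). The 29 positive genes lie left of and above the dashed line of equal effect, and the 13 negative genes right of and below it, with AT1G71360 and ARP9 apart at the upper right.

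The larger part of the difference came from ED. The library labels carry a sample number whose meaning is not given in the sources used here. At ED every number of SnRK1α1-OE is lower than every number of Col-0, while at EN the numbers of the groups interleave. At EN, replicate 1 of each group has a number close to those of SnRK1α1-OE at ED. The other EN libraries have numbers close to those of Col-0 at ED. An effect of the line at ED cannot be told apart from whatever these numbers mark. The same holds for the difference of all 42 genes, since it contains the effect at ED. The absolute effect was larger at ED than at EN in 39 of the 42 genes (72.9% of all genes tested). Of the 42, 41 were also called for the effect at ED and 2 for the effect at EN (AT1G71360 and ARP9), so for the other genes a higher or lower value at EN describes the libraries and did not pass a test of its own. The tests at ED and EN use libraries of the test of the difference, so the selection favours such overlap. Over all genes, 18 were called between SnRK1α1-OE and Col-0 at EN (0.0898%, with 13 higher, 0.0649%, and 5 lower, 0.0249%), of which 16 also changed by 1 or more on the log2 scale, and 799 were called at ED (3.99%), of which 134 changed by as much. The count at ED rests on single libraries: it was 35 without SnRK1α1-OE replicate 3 or Col-0 replicate 3 at ED, 55 without SnRK1α1-OE replicate 1 at ED, 168 without Col-0 replicate 2 at ED and 2311 without Col-0 replicate 1 at ED. Leaving out a library at EN, which enters the shared estimate of spread, gave 287 to 1227. The fitted effects at EN and ED, which share no library, had a Pearson r of −0.05 and a Spearman rho of −0.27 across the 20041 genes, which are not independent replicates, and opposite signs in 63.9% of them. A call at ED without one at EN does not show that the effects differ, and only 41 of the 799 genes called at ED passed the test of the difference itself.

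Read the other way, the difference says how the change from ED to EN deviated between the genotypes. Of the 42 genes, 32 had a smaller absolute EN minus ED change in SnRK1α1-OE than in Col-0, against 56.3% of all genes tested. The 42 were chosen by the difference between these same changes, so nothing is read from this count or from the medians below. Of the 13 negative genes, 11 had higher fitted values at EN than at ED in both genotypes, AT1G52342 only in Col-0 and RBCX1 in neither, and the median of the 13 log2 changes was 1.22 in SnRK1α1-OE and 2.27 in Col-0. For the 29 positive genes the median change was 0.02 in SnRK1α1-OE and −0.91 in Col-0. Over all genes the counts of diel calls were 8751 in SnRK1α1-OE (43.7%) and 9877 in Col-0 (49.3%).

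**Figure D2:**
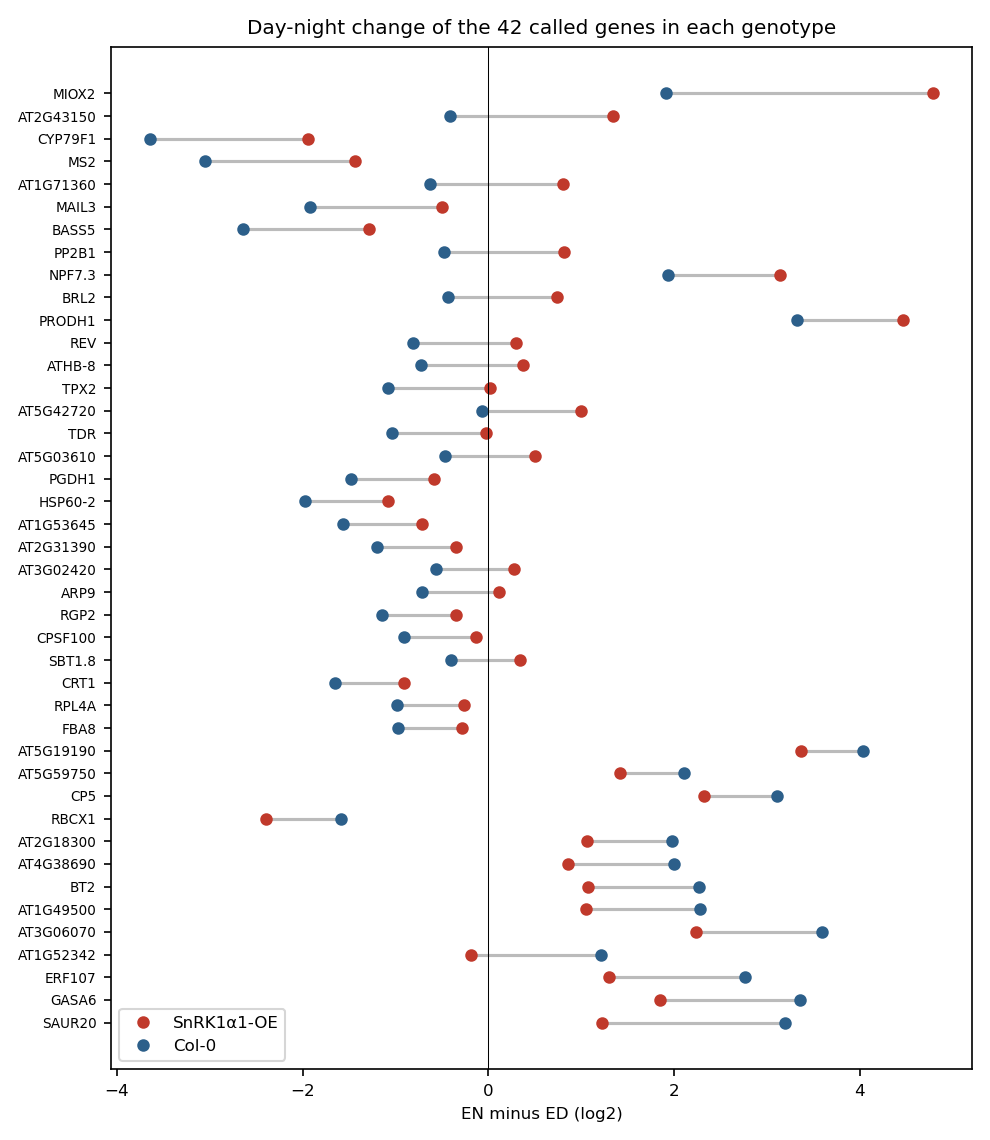
Change from ED to EN of the 42 called genes (log2, EN minus ED) in SnRK1α1-OE (red) and Col-0 (blue), with the genes ordered by the difference between them. The changes of MS2 are −1.44 in SnRK1α1-OE and −3.05 in Col-0, and those of AT3G06070 are 2.24 and 3.59.

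These calls stand close to the threshold, and how many there are depends on single libraries. MS2, AT1G71360 and AT3G06070 (adjusted p = 0.0118 for each) and AT2G43150 (0.032) passed with a margin, and the other 38 had adjusted p-values of 0.0494 or 0.0495. The next gene had 0.0517, and 438 genes were under 0.1. When each of the 12 libraries was left out in turn, no gene was called without SnRK1α1-OE replicate 1 or 2 at EN, Col-0 replicate 2 at EN, SnRK1α1-OE replicate 1 at ED or Col-0 replicate 3 at ED, where 2929 to 4218 genes still had an unadjusted p under 0.05 (4110 genes with all 12 libraries, 20.5%). The count was 5 without SnRK1α1-OE replicate 3 at EN, 4 and 5 without Col-0 replicates 1 and 3 at EN, 68 and 3 without SnRK1α1-OE replicates 2 and 3 at ED, 1132 without Col-0 replicate 1 at ED, and 5 without Col-0 replicate 2 at ED. All 42 genes kept the sign of their difference, with an unadjusted p under 0.05, in each of these 12 fits and in the 10 other settings tried. They were chosen by small p-values in the full fit, and these fits reuse most or all of its libraries. The selection therefore favours this outcome, which is not independent support. The adjusted p-values of the 42 genes over these 22 settings ranged from 9.5e-04 to 0.186. MS2, AT1G71360 and AT3G06070 were called in 17 of the 22 settings, AT2G43150 in 15 and CYP79F1 in 12, and the remaining genes in 5 to 10.

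**Figure D3:**
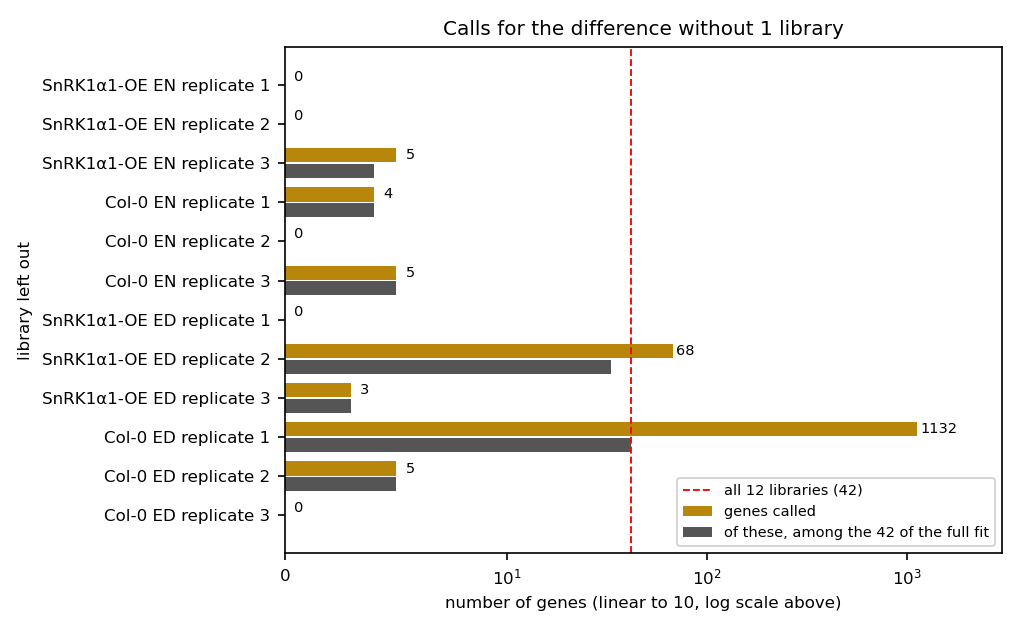
Number of genes called for the difference when a single library was left out (gold) and how many of them are among the 42 called with all 12 libraries (dark grey), on an axis that is linear to 10 and logarithmic above. The count runs from 0 to 1132, and the 1132 genes without Col-0 replicate 1 at ED hold all 42.

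The libraries of a group did not all resemble each other, and this bears on every count given here. A single axis held 37.8% of the variance within groups, with Col-0 replicate 1 at ED (0.55) and at EN (0.42) farthest to the same end. SnRK1α1-OE replicate 1 at EN (0.28) and replicate 3 at ED (0.25) lay on that side too, and all other libraries on the opposite side. The mean log2 value of 212 cytosolic ribosomal protein genes at EN was 12.01 in SnRK1α1-OE replicate 1 and 12.02 in Col-0 replicate 1. It was 11.26 to 11.48 in the other EN libraries. By sample number, replicate 1 of both groups at EN lies with SnRK1α1-OE at ED, and the other EN libraries lie with Col-0 at ED. What these numbers have to do with the ribosomal values was not tested. The summed value of 16 genes of salicylic acid and pattern-triggered defence was, at each time, the lowest of the Col-0 libraries in Col-0 replicate 1. At EN this sum ran from 59065 to 92612 for SnRK1α1-OE and from 51620 to 63817 for Col-0, and at ED from 83907 to 152952 for SnRK1α1-OE and from 70202 to 246596 for Col-0. The summed value of the 10 apex and flower markers was 283 in Col-0 replicate 1 at EN and 387 in Col-0 replicate 1 at ED, against 93.3 to 219 in the other 10 libraries. Without these 2 libraries, 613 genes were called, among them all 42. The part of this shared deviation in the other results was not tested. In whole rosettes, fewer cells of a type and less RNA per cell cannot be told apart.

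The scaling also decides how the calls split. The median difference over all genes was 0.14 as deposited and 0.01 with median-ratio size factors. The median effect of the line was 0.03 at EN and −0.12 at ED. With median-ratio factors 6 positive and 12 negative genes were called, and with quantile normalization 8 and 13, against 29 and 13 as deposited. A positive difference of a single gene is best read against the median of 0.14.

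Methionine synthase MS2 (AT3G03780, chromosome 3, 956862 to 961032 of TAIR10.1), which makes methionine from homocysteine, was among the most stable genes. At EN its value was 2796, 2609.9 and 2814 in SnRK1α1-OE, against 1682, 1906 and 2310.4 in Col-0. At ED the values were 7429.5, 8446 and 6546 in SnRK1α1-OE, against 17851, 15097 and 15668 in Col-0. The line was thus below Col-0 at ED and above it at EN with no overlap at either time, as was the case for 21 of the 29 positive genes (438 of all genes tested, and 2.78% when the mirrored arrangement is counted too, a share that the test itself favours among called genes). The libraries of SnRK1α1-OE and Col-0 stood apart at EN in 34 of the 42 genes (10.3% of all genes) and at ED in 42 (31%). The difference of MS2 was 1.61 ± 0.18 (SE, adjusted p = 0.0118), a 3.05-fold shift between the effects, and the transcript dropped by a log2 change of −1.44 from ED to EN in the line and −3.05 in Col-0. MS1 is a close copy of MS2, so reads could be shared between them, and it had a difference of 0.73 (adjusted p = 0.113).

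CYP79F1 (AT1G16410), the cytochrome P450 that starts the core structure of glucosinolates made from chain-elongated methionine, had values at EN of 2556, 1806 and 1801 in SnRK1α1-OE, against 1247, 1097 and 1298 in Col-0. In the ED libraries it was 8109, 8339 and 7028 in SnRK1α1-OE, against 19083, 12582 and 14468 in Col-0. Its difference was 1.70 ± 0.24 (SE, adjusted p = 0.0494). CYP79F2, a neighbouring close copy, had 1.23 (adjusted p = 0.0663), and reads of the pair may not be fully separable. BASS5 (AT4G12030), the plastid transporter for the keto acids that are elongated in this pathway, showed the same arrangement, with 686, 531 and 605 in SnRK1α1-OE, against 493, 391.96 and 468 in Col-0 at EN. At ED BASS5 had 1413, 1609.7 and 1415 in SnRK1α1-OE, against 3586, 2310.4 and 2659 in Col-0, and its difference was 1.35 ± 0.23 (SE, adjusted p = 0.0494).

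A list of the whole pathway was drawn up once these values were known, and it supports nothing by itself. Of its 25 genes, all tested, 2 were called positive (CYP79F1 and BASS5, against 0.145% of all genes) and 0 negative. A positive difference was found in 24 (63.0% of all genes), with a median of 0.84 against 0.14 over all genes tested. The chain elongation enzymes IPMI1 (1.49, adjusted p = 0.0549) and BCAT4 (1.02, 0.145), the monooxygenase CYP83A1 (1.02, 0.0588) and the regulators MYB28 (0.60, 0.202), MYB29 (1.14, 0.13) and MYB76 (1.41, 0.152) did not pass. The only member with a negative value was FMOGS-OX2 (−0.74). The mean log2 value of the 25 genes was 10.24, 9.76 and 9.79 in SnRK1α1-OE, against 9.83, 9.58 and 9.57 in Col-0 at EN. The ED values were 11.04, 11.10 and 11.09 in SnRK1α1-OE, against 11.99, 11.36 and 11.56 in Col-0. Col-0 was above the line in every ED library, and its replicate 1 was the highest, while at EN the groups overlapped. The list median stayed positive in all 22 settings, between 0.62 and 1.02, the lowest being without Col-0 replicate 1 at ED. The count of called members ran from 0 to 7. It was 7 without that library, and 0 in 10 settings, namely no filter and the omission of any library at EN, of SnRK1α1-OE replicate 1 or 3 at ED or of Col-0 replicate 3 at ED.

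PGDH1 (AT4G34200), the first enzyme of serine synthesis from 3-phosphoglycerate, had values at EN of 3543, 3238 and 2941 in SnRK1α1-OE, against 2822, 2646 and 2608 in Col-0. At ED the values were 4899, 5077 and 4549 in SnRK1α1-OE, against 8216, 7381 and 6951 in Col-0. Its difference was 0.90 ± 0.14 (SE, adjusted p = 0.0494), and AT4G34190 overlaps it on the same strand. A list of 13 genes of methionine and serine synthesis was likewise drawn up once values were known, and it supports nothing by itself. Of these, 2 were called positive (MS2 and PGDH1, against 0.145% of all genes) and 0 negative. A positive difference was found in 11 (63.0% of all genes), and the median was 0.60 against 0.14 over all genes tested. Over the 22 settings the median ran from 0.46 to 0.63, and the calls from 0 in 5 settings to 6. CGS1, which commits carbon to methionine, had 0.67 (adjusted p = 0.0746) and the S-adenosylmethionine synthetase METK3 0.60 (0.0598). PSP, the last enzyme of this route to serine, had −0.29 (0.371).

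Genes of vascular development were also among the called genes. The class III homeodomain-leucine zipper factors REV (AT5G60690) and ATHB-8 (AT4G32880), the receptor kinase TDR (AT5G61480), which perceives a peptide signal in the cambium, and the vascular receptor-like kinase BRL2 (AT2G01950) were all called. REV had 1042, 1054 and 1099 in SnRK1α1-OE, against 939.9, 876 and 898 in Col-0 at EN. At ED REV had 949, 986 and 689 in SnRK1α1-OE, against 1623, 1427 and 1726 in Col-0, and its difference was 1.11 ± 0.19 (SE, adjusted p = 0.0494). TDR had 835, 850.4 and 731 in SnRK1α1-OE, against 725, 691 and 757 in Col-0 at EN, where the groups overlapped. At ED TDR had 834, 905 and 730.1 in SnRK1α1-OE, against 1696, 1348 and 1427 in Col-0, and its difference was 1.01 ± 0.17 (SE, adjusted p = 0.0494). The difference was 1.1 ± 0.19 (SE, adjusted p = 0.0495) for ATHB-8 and 1.18 ± 0.21 (SE, adjusted p = 0.0494) for BRL2. The annotation places AT5G60700 over REV on the other strand, and whether strand was kept in counting is not given in the sources used here.

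A list of 14 vascular genes was also drawn up once values were known, and it supports nothing by itself. The 4 named above were called positive (0.145% of all genes) and 0 negative. Of the 14, 13 had a positive difference (63.0% of all genes), and the median was 0.83. At ED the fitted effect was below 0 in all 14 (median −0.71, 6 called lower, against 2.44% of all genes), and at EN the median was 0.09. Their mean log2 value was 8.996, 8.95 and 8.81 in SnRK1α1-OE, against 8.90, 8.69 and 8.83 in Col-0 at EN. In the ED libraries it was 8.80, 8.89 and 8.63 in SnRK1α1-OE, against 9.62, 9.32 and 9.51 in Col-0. The Col-0 libraries at ED stood above the other 9. The summed apex and flower markers, which share tissues with some of these genes, were 126, 132 and 178 in SnRK1α1-OE, against 387, 107 and 181 in Col-0 at ED. Their part in the vascular values was not tested. The median stayed positive in all 22 settings, between 0.69 and 0.99. In 15 of these settings 0 of the 14 genes were called, including both other scalings, no filter, non-robust eBayes, the replicate block, and the omission of any library at EN, of SnRK1α1-OE replicate 1 or 3 at ED or of Col-0 replicate 2 or 3 at ED. The most calls, 7, came without Col-0 replicate 1 at ED, where the median was 0.74. The factors PHV (0.78, adjusted p = 0.0748) and PHB (0.62, 0.088) and the auxin response factor MP (0.87, 0.129) had positive values that did not pass, and the peptide gene CLE44 had −0.01.

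**Figure D4:**
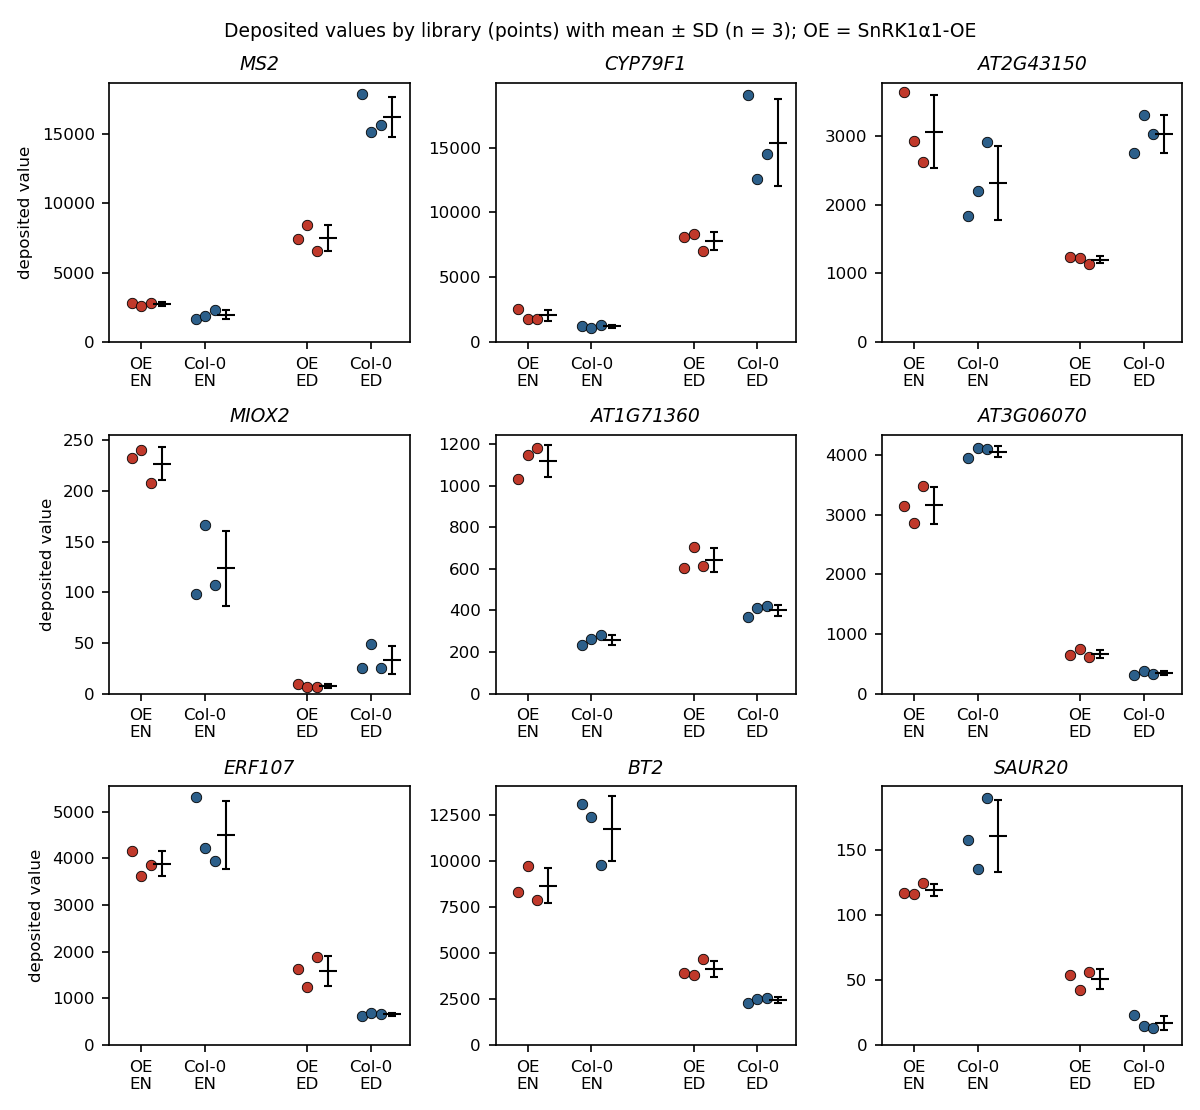
Deposited values of 9 genes called for the difference, in each library (points) with mean ± SD (n = 3), for SnRK1α1-OE (red) and Col-0 (blue) at EN and at ED. In MS2, CYP79F1 and MIOX2 the line is below Col-0 at ED and above it at EN, and in AT3G06070, BT2 and SAUR20 it is above Col-0 at ED and below it at EN.

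MIOX2 (AT2G19800), which oxidises myo-inositol to glucuronic acid, had the largest positive difference among the called genes, 2.87 ± 0.43 (SE, adjusted p = 0.0494). At EN its value was 233, 240.4 and 208 in SnRK1α1-OE, against 98.5, 166 and 107 in Col-0. The ED values were 9.23, 6.38 and 6.46 in SnRK1α1-OE, against 24.7, 48.7 and 25.3 in Col-0, so the ED values of the line were just under the level of the filter. MIOX2 rose between ED and EN in either genotype, with log2 changes of 4.79 in the line and 1.91 in Col-0. AT2G43150, a proline-rich extensin-like cell wall protein, had 3643, 2920.1 and 2615 in SnRK1α1-OE, against 1836, 2197 and 2907 in Col-0 at EN, where the groups overlapped. At ED AT2G43150 had 1235, 1219 and 1137 in SnRK1α1-OE, against 2754, 3304 and 3019.7 in Col-0, and its difference was 1.75 ± 0.23 (SE, adjusted p = 0.032). The proline dehydrogenase PRODH1 (AT3G30775), which starts the breakdown of proline in mitochondria, had 7274, 7938 and 7791 in SnRK1α1-OE, against 5693, 7157 and 5733 in Col-0 at EN. At ED PRODH1 had 360.3, 394 and 291 in SnRK1α1-OE, against 562, 663 and 626 in Col-0, and its difference was 1.15 ± 0.18 (SE, adjusted p = 0.0494). NPF7.3, a nitrate transporter that loads the xylem, had 2765 ± 329.5 in SnRK1α1-OE and 2082 ± 337 in Col-0 at EN (SD, n = 3) and 314 ± 55.5 in SnRK1α1-OE and 540.0 ± 29.5 in Col-0 at ED, with a difference of 1.21 ± 0.21 (SE, adjusted p = 0.0494). AT1G32440 overlaps NPF7.3 on the other strand.

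AT1G71360, annotated as a galactose-binding protein, was higher in the line at either time. It had 1035, 1147 and 1182 in SnRK1α1-OE, against 232, 261 and 282 in Col-0 at EN. At ED the values were 606, 708 and 616 in SnRK1α1-OE, against 370.1, 411 and 421 in Col-0. The groups did not overlap, with effects of 2.12 at EN (adjusted p = 3.69e-06) and 0.68 at ED (adjusted p = 0.0158), and the difference was 1.44 ± 0.16 (SE, adjusted p = 0.0118). ARP9, an actin-related protein, showed the same arrangement, with effects of 1.55 at EN and 0.72 at ED and a difference of 0.83 ± 0.13 (SE, adjusted p = 0.0494). In both genes the value in Col-0 was lower at EN than at ED, while the line showed an EN minus ED change of 0.80 in AT1G71360 and 0.12 in ARP9.

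The other positive genes have varied roles. They include the mitochondrial chaperonin HSP60-2 (0.90), the endoplasmic reticulum chaperone calreticulin CRT1 (0.74), RGP2, a mutase that makes the wall sugar precursor UDP-arabinofuranose (0.80), the cytosolic aldolase FBA8 (0.68), the mRNA 3′ end processing factor CPSF100 (0.78), the spindle factor TPX2 (1.1), the subtilase SBT1.8 (0.75) and the ribosomal protein gene RPL4A (0.72). RPL4A was the single one called among 212 cytosolic ribosomal protein genes, whose median was 0.03 against 0.14 over all genes. That list's median ran from −0.16 without SnRK1α1-OE replicate 1 at EN to 0.27 without Col-0 replicate 1 at EN, so its direction turned with single libraries. The phloem protein 2 gene PP2B1 (1.29), the phosphatase-like MAIL3 (1.42), the glycosyl hydrolase AT5G42720 (1.07), the lipase-like AT5G03610 (0.97), the hydroxyproline-rich AT1G53645 (0.86), the carbohydrate kinase-like AT2G31390 (0.85) and AT3G02420 (0.84) complete the 29. MAIL3 was the only one of the 42 that was not called at ED (adjusted p = 0.0544).

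Among the negative genes AT3G06070, of unknown function, was the most stable. At EN it had 3137, 2859.7 and 3479.8 in SnRK1α1-OE, against 3944, 4114 and 4105 in Col-0. In the ED libraries it was 648, 746 and 617 in SnRK1α1-OE, against 314, 378 and 321 in Col-0. The groups were apart at either time, as in 11 of the 13 negative genes (120 of all genes tested), and the difference was −1.35 ± 0.16 (SE, adjusted p = 0.0118). ERF107 (AT5G61590), an AP2/ERF transcription factor, had 4160.0, 3622 and 3866 in SnRK1α1-OE, against 5318, 4222 and 3936 in Col-0 at EN, and the groups overlapped there. At ED ERF107 had 1633, 1254 and 1889.6 in SnRK1α1-OE, against 617, 685 and 670.1 in Col-0, and its difference was −1.46 ± 0.21 (SE, adjusted p = 0.0494). BT2 (AT3G48360), a BTB and TAZ domain protein whose transcript is repressed by sugars, had 8347, 9730.4 and 7905 in SnRK1α1-OE, against 13115, 12418 and 9792 in Col-0 at EN. At ED BT2 had 3911, 3825 and 4660.5 in SnRK1α1-OE, against 2268, 2491 and 2552 in Col-0, and its difference was −1.20 ± 0.18 (SE, adjusted p = 0.0494). These 3 transcripts had more at EN in either genotype, and the line, which was above Col-0 at ED, gained less between ED and EN.

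GASA6, a gibberellin-regulated peptide gene, had 3122 ± 443 in SnRK1α1-OE and 4682 ± 245 in Col-0 at EN (SD, n = 3) and 868 ± 124 in SnRK1α1-OE and 465 ± 119.9 in Col-0 at ED, with a difference of −1.51 ± 0.25 (SE, adjusted p = 0.0494). AT1G74675 overlaps GASA6 on the other strand. RBCX1, an assembly chaperone of Rubisco, had the opposite rhythm, with less at EN. It had 400.0, 397 and 476 in SnRK1α1-OE, against 478, 493 and 520.1 in Col-0 at EN. At ED RBCX1 had 2316, 2185 and 2192 in SnRK1α1-OE, against 1557, 1401 and 1528 in Col-0, with a difference of −0.81 ± 0.14 (SE, adjusted p = 0.0494). The others were AT1G52342 (−1.40), AT1G49500 (−1.22), the phosphodiesterase-like AT4G38690 (−1.15), the basic helix-loop-helix factor AT2G18300 (−0.92), CP5 (−0.78), the riboflavin biosynthesis gene AT5G59750 (−0.70) and AT5G19190 (−0.67). Including NPF7.3, REV and GASA6, 8 of the 42 genes overlap a gene on the other strand, among them also RBCX1, CP5, TPX2, AT2G31390 and AT5G59750.

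Genes that SnRK1 and carbon starvation are known to induce leaned to the negative side. Of 27 genes on the list, 26 were tested. Of these, 1 was called positive (PRODH1, against 0.145% of all genes) and 1 negative (BT2, against 0.0649%). A negative difference was found in 21 (7417 of all 20041 genes tested), and the median was −0.51 against 0.14 over all genes. PYL5, BGAL4, AT3G62550 and DIN10 on this list are also among the genes that the study picked from these libraries. At an unadjusted p under 0.05 there were 11 negative genes (5.66% of all genes tested) and 1 positive one (14.8%). At ED 8 of the 26 were called higher in the line (1.55% of all genes) and 1 lower (2.44%), with a median effect of 0.32. At EN 0 were called by limma, the only tool run, and 1 in each direction had an unadjusted p under 0.05 (2.29% of all genes higher and 1.24% lower), with a median of −0.05. The mean log2 value over the list was 10.55, 10.64 and 10.55 in SnRK1α1-OE, against 10.69, 10.73 and 10.49 in Col-0 at EN. The ED values were 9.16, 9.06 and 9.07 in SnRK1α1-OE, against 8.76, 8.68 and 8.71 in Col-0. The line was above Col-0 in all libraries at ED and overlapped with it at EN.

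Single members of this list that did not pass the test of the difference include the dormancy-associated DRM2 (−1.19, adjusted p = 0.0864), the senescence-associated DIN1 (−1.22, 0.156), ATG8E, which labels autophagosomes (−0.82, 0.0903), and the class II trehalose phosphate synthase genes TPS8 (−0.69, 0.112) and TPS9 (−0.79, 0.0822). DIN6, the dark-induced asparagine synthetase, had −0.89 (0.338). Values near 0 were found for the enzymes of branched-chain amino acid breakdown MCCA (0.05), MCCB (−0.07) and IVD (−0.14), and for DIN3 (−0.06). The list median was negative in all 22 settings, between −0.69 and −0.41. The number of its genes called ran from 0 in 11 settings to 9 without Col-0 replicate 1 at ED.

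Nuclear genes of photosystem and light-harvesting proteins shared a direction, though none of the 43 passed the test (23 had an unadjusted p under 0.05, all negative, against 5.66% negative over all genes, limma being the only tool run). All 43 had a negative difference (median −0.36), against 7417 of all 20041 genes tested. The fitted effect was above 0 at ED in all 43 (median 0.23, 5 called higher, against 1.55% of all genes) and below 0 at EN in 41 (median −0.13, 0 called and 1 at an unadjusted p under 0.05). With quantile normalization 40 of the 43 were negative, and 42 were without Col-0 replicate 2 at ED or without SnRK1α1-OE replicate 1 at EN. Without Col-0 replicate 1 at ED, 12 were called. LHCA6 (−0.73, adjusted p = 0.0746) and PSBO2 (−0.89, 0.0884) came closest. The mean log2 value over the 43 genes was 15.28, 15.38 and 15.25 in SnRK1α1-OE, against 15.48, 15.44 and 15.39 in Col-0 at EN. At ED the values were 14.83, 14.85 and 14.99 in SnRK1α1-OE, against 14.78, 14.44 and 14.51 in Col-0. The line exceeded Col-0 in all libraries at ED, while at EN it was below all 3. The median EN minus ED change of these genes was −0.03 in the line and 0.46 in Col-0.

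SAUR genes, a family of small auxin-induced transcripts tied to cell expansion, leaned the same way. Of 30 genes with a SAUR symbol, 27 were tested. Of these, 1 was called negative (0.0649% of all genes) and 0 positive, and 23 had a negative difference (7417 of all 20041 genes tested). An unadjusted p under 0.05 was found in 15 (all negative, against 5.66% of all genes), and the median was −0.97. SAUR20 had 117, 116 and 125 in SnRK1α1-OE, against 157, 135 and 190.4 in Col-0 at EN. At ED SAUR20 had 53.5, 42.4 and 56.4 in SnRK1α1-OE, against 23.1, 14.8 and 13.1 in Col-0, so the line was above Col-0 at ED and below it at EN, and the difference was −1.97 ± 0.34 (SE, adjusted p = 0.0494). SAUR19 (−2.30, adjusted p = 0.0903), SAUR21 (−1.29, 0.112), SAUR23 (−1.63, 0.0912) and SAUR24 (−1.002, 0.17) are its near-identical neighbours, between which reads may be shared, and SAUR15 had −1.73 (0.1). The median was negative in all 22 settings, between −1.14 and −0.81.

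**Figure D5:**
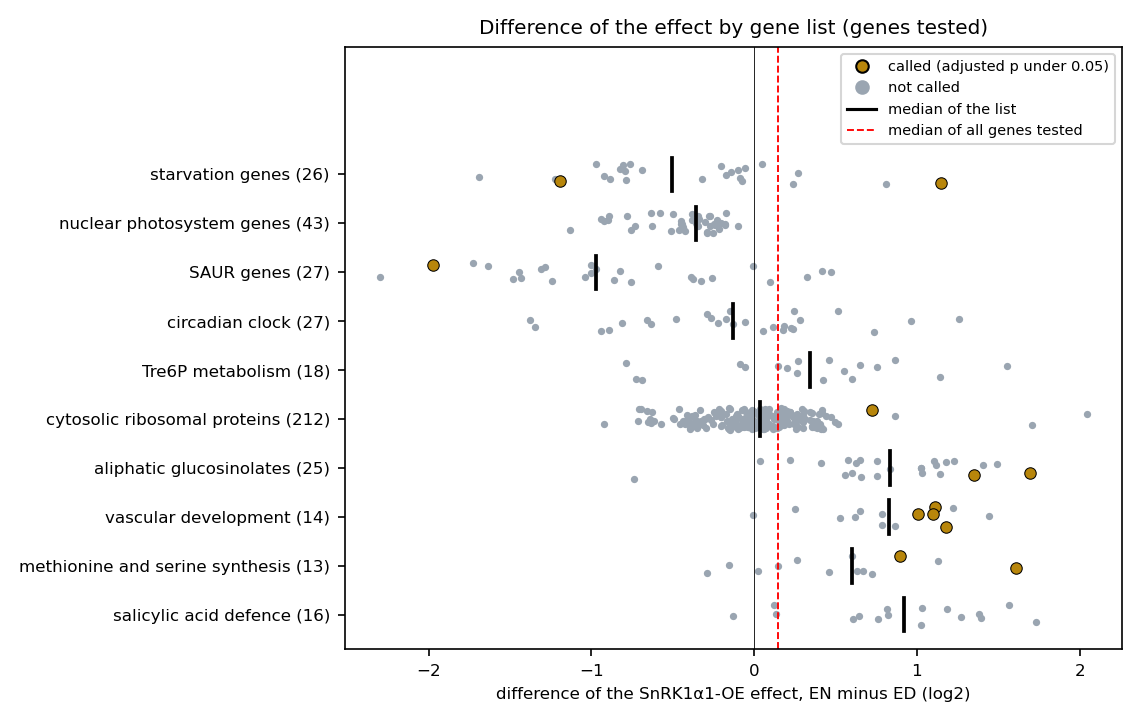
Difference of the SnRK1α1-OE effect between EN and ED (log2) for the genes of 10 lists, with called genes in gold, other genes in grey, the list median as a black bar and the median of all genes tested (0.14) as a dashed line. The medians run from −0.97 for SAUR genes to 0.92 for salicylic acid defence genes, a list in which no gene was called.

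Trehalose 6-phosphate metabolism gave 0 calls by limma among 18 genes tested. At an unadjusted p under 0.05 there were 3 positive genes (14.8% of all genes) and 3 negative ones (5.66%), so the positive count is near its share over all genes, and the median was 0.35. TPS1, the synthase that makes trehalose 6-phosphate, had 1836, 1907 and 1669.6 in SnRK1α1-OE, against 1791, 1683 and 1939 in Col-0 at EN. At ED TPS1 had 1429.9, 1559 and 1077 in SnRK1α1-OE, against 1851, 2004 and 2028 in Col-0, with a difference of 0.55 ± 0.18 (SE, adjusted p = 0.147). The groups overlapped at EN and stood apart at ED. TPS5 had 0.60 (adjusted p = 0.112), and the phosphatase genes TPPD (1.14, 0.278) and TPPH (0.75, 0.211) had positive values that did not pass either.

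Of 27 clock genes 0 were called by limma, 3 were positive (14.8% of all genes) and 7 negative (5.66%) at an unadjusted p under 0.05, and their median was −0.13. The largest negative values belonged to RVE2, a MYB-related factor (−1.37, adjusted p = 0.0903), the blue light receptor FKF1 (−1.35, 0.126) and BOA (−0.94, 0.116), and the largest positive ones to GI (1.26, 0.153) and PRR5 (0.97, 0.179), genes of the evening and afternoon. The morning factors CCA1 (0.17) and LHY (0.22) and the evening gene TOC1 (0.19) were near 0.

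The genes of salicylic acid and pattern-triggered defence had a median of 0.92, yet 0 of 16 were called by limma and 0 reached an unadjusted p under 0.05. The mean log2 value of the list was 11.23, 11.03 and 11.07 in SnRK1α1-OE, against 10.68, 10.87 and 10.77 in Col-0 at EN. In the ED libraries it was 11.54, 10.84 and 10.46 in SnRK1α1-OE, against 10.15, 12.40 and 11.97 in Col-0. The Col-0 libraries at ED alone covered more than the whole range of the other groups. Without Col-0 replicate 1 at ED 8 of the 16 genes were called positive and the median was 1.82, and with Col-0 replicate 1 left out at both times 4 were called. In the other 20 settings 0 were called, and the list median was lowest, at 0.41, without Col-0 replicate 2 at ED.

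Other lists held no called gene. They were the SnRK1 complex with its upstream kinases (9 tested, median −0.03), C and S1 bZIP factors (9, −0.05), starch degradation (18, 0.13) and starch synthesis (11, 0.17), sucrose metabolism and sugar transport (15, 0.27), the iron core response (17, −0.05), sulfur deficiency and assimilation (12, 0.09), nitrate and ammonium assimilation (10, 0.14), abscisic acid (18, 0.23), jasmonate (10, −0.24), heat shock (10, −0.23), cold (12, −0.24), flavonoids (12, 0.08), light signalling (9, 0.19), autophagy (11, −0.28), chloroplast-encoded genes (110, −0.11) and mitochondrion-encoded genes (35, 0.27). Over these 17 lists 0 to 11 genes had an unadjusted p under 0.05 in a direction, against 14.8% positive and 5.66% negative over all genes. The 11 were negative genes among the 110 chloroplast-encoded ones, of which 5 were positive at that level. The lists differ in size, so this range does not rank them. The phloem loader SUC2 (0.77, adjusted p = 0.0588) and the sulfate assimilation enzyme APR1 (0.87, 0.0746) came closest to the threshold. BAM5 (−2.71, 0.0956), a beta-amylase, and VSP1 (−2.74, 0.114), a wound-induced storage protein, had large values that did not pass.

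The 15 genes that the study singled out for SnRK1α1-OE include none with a called difference (by limma; 2 positive, against 14.8% of all genes, and 8 negative, against 5.66%, at an unadjusted p under 0.05). They were picked from these libraries, so their direction is not independent evidence. Some of them had large effects at either time that did not pass as different: the difference was −0.30 ± 0.34 (SE, adjusted p = 0.627) for QQS, a regulator of starch, −0.57 ± 0.45 (SE, adjusted p = 0.49) for CYP21-2 and −0.34 ± 0.25 (SE, adjusted p = 0.44) for PURU2. Others had larger effects at ED: AT3G62550 had 254, 119 and 172 in SnRK1α1-OE, against 265, 132 and 140.1 in Col-0 at EN. At ED AT3G62550 had 7498, 5524 and 9272 in SnRK1α1-OE, against 2651, 1865 and 2199 in Col-0, and its difference of −1.69 ± 0.44 (SE, adjusted p = 0.1) did not pass. The values were −0.997 for the peptide gene IRP3 (adjusted p = 0.0817), −0.76 for the abscisic acid receptor PYL5 (0.0903), −0.80 for BGAL4 (0.129), −0.86 for NEET (0.202), −0.32 for DIN10 (0.513) and −2.83 for CSLA1 (0.214), where a single library of the line at EN was at 50.3 and the others at 1.81 and 1.95.

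The promoters of the 20 genes with the largest called differences were searched for 5 short motifs of plant promoters, in the 250 bases before each gene start. The motifs were the G-box CACGTG, the evening element AAAATATCT, the telo box AAACCCTA, site II TGGGCC and the I-box GATAAG, each on both strands. The I-box was present in 3 of the 10 negative genes and 1 of the 10 positive ones, against 12.4% of 19895 promoters of genes tested. Site II was present in 1 and 1 (16.4% of all), the evening element in 1 and 0 (2.51%), and the G-box (7.31%) and telo box (3.65%) in none of the 20. These are letter matches over few promoters, and nothing is read from a missing match. The promoters of the 3 negative genes with an I-box are shown because the I-box was the motif found most often among the 20, with the I-box and, in AT1G52342, site II in capitals, 5′ to 3′ on the strand of the gene (RefSeq, TAIR10.1).
AT1G52342 (chr1:19493123-19493372, minus strand): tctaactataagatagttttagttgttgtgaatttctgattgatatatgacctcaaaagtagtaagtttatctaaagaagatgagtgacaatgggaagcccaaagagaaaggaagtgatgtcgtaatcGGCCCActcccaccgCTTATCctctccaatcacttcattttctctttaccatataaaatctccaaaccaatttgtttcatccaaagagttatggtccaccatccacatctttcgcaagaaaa
AT3G06070 (chr3:1832191-1832440, minus strand): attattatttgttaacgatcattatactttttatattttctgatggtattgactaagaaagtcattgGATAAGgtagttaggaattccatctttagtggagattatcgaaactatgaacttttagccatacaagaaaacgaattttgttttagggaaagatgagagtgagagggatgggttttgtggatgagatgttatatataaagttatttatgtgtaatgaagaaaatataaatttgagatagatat
AT2G18300 (chr2:7954786-7955035, minus strand): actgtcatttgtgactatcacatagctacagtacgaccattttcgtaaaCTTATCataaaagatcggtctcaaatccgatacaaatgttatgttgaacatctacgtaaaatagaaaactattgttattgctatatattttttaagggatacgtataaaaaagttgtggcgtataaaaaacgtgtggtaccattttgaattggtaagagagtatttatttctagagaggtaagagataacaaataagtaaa
In AT1G52342 and AT2G18300 the I-box stands in reverse as CTTATC.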

How the data were processed

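RNA-seq values of 12 libraries (SnRK1α1-OE and Col-0 at EN and ED, 3 each, grouped by their labels) were analysed. The authors mapped reads to TAIR10 with HISAT2, and SAMtools and featureCounts are named in the submitters' processing notes. The deposited signal values are edgeR pseudo-counts that the authors multiplied by TMM factors, and library totals are nearly equal. Reads per library were not recovered, so no count model was run.

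Log2 of the value plus 1 was fitted with limma 3.58.1 (R 4.3.3) on 4 group means with trended, robust eBayes. A gene was tested where 3 or more of these libraries had a value of 10 or more, with Benjamini-Hochberg adjustment over all 20041 and calls at an adjusted p under 0.05. The fit was run on simulated counts with planted changes and independent libraries. Such counts lack the shared deviation within groups seen here, so that run does not show how far these calls depend on it. The p-values measure the spread between pools of rosettes. Genes named are the 10 called with the largest positive and the 10 with the largest negative difference, called genes of the lists, the genes the study singled out for this line and up to 3 members of each list with the smallest p, while the remaining called genes and other list members were named after their values were seen. The comparison, lists and rules were chosen with earlier results of these data known, and 3 lists (aliphatic glucosinolates, vascular development, methionine and serine synthesis) after seeing these values. Alternatives were pseudocounts 0.125 and 4, no filter and a filter of 50, scaling by median-ratio factors or by quantiles, non-robust eBayes, blocking on replicate number, inclusion of all 18 libraries, omission of each library in turn, and, added after seeing the data, Col-0 replicate 1 left out at both times. Of 32833 gene IDs, 32548 are in the RefSeq annotation of TAIR10.1.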

Additional observations from a re-analysis of the deposited data

Results flagged for a closer look

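For 42 genes the effect of SnRK1α1-OE differed between EN and ED by the test of the difference (limma, adjusted p under 0.05, 0.21% of 20041 genes). The difference contains the effect at ED, which cannot be told apart from what the sample numbers of the labels mark. The positive differences on the log2 scale were, for metabolism and transport, MIOX2 2.87, CYP79F1 1.70, MS2 1.61, BASS5 1.35, NPF7.3 1.21, PRODH1 1.15, PGDH1 0.90, FBA8 0.68, AT2G31390 0.85 and AT3G02420 0.84. For proteins of the wall, the endoplasmic reticulum and related annotations they were AT2G43150 1.75, AT5G42720 1.07, AT5G03610 0.97, AT1G53645 0.86, SBT1.8 0.75, RGP2 0.80 and CRT1 0.74. For vascular genes they were BRL2 1.18, REV 1.11, ATHB-8 1.1 and TDR 1.01. The other positive values were AT1G71360 1.44, MAIL3 1.42, PP2B1 1.29, TPX2 1.1, HSP60-2 0.90, ARP9 0.83, CPSF100 0.78 and RPL4A 0.72. The negative values were SAUR20 −1.97, GASA6 −1.51, ERF107 −1.46, AT1G52342 −1.40, AT3G06070 −1.35, AT1G49500 −1.22, BT2 −1.20, AT4G38690 −1.15, AT2G18300 −0.92, RBCX1 −0.81, CP5 −0.78, AT5G59750 −0.70 and AT5G19190 −0.67. Groups of 3 are too small for the test of a single outlying sample in each gene.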

How the results depend on the processing

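Calls of the difference (42) were 43 with either other pseudocount and 44 with a filter of 50. They were 4 without a filter on low values, 18 with median-ratio factors (14 of them among the 42), 21 with quantile normalization (17), 523 in a fit of all 18 libraries (41), 5 without the robust setting, 15 with the replicate number as a block (12) and 613 with Col-0 replicate 1 left out at both time points (42). Leaving out single libraries gave 0 to 1132 calls. Calls at ED (799) were 519 without a filter, 1879 in the fit of 18 libraries, 3556 with Col-0 replicate 1 left out at both time points, and 35 to 2311 with single libraries left out. Calls at EN (18) ran from 12 to 15 without single libraries, and the diel calls stayed within 1.5 times in each setting. Among the named genes the difference changed sign for AT3G05955, which is at or near 0 in Col-0 (−0.47, and −0.85 to 0.28 with single libraries left out, 0.28 being without Col-0 replicate 1 at EN, and 0.12 with Col-0 replicate 1 left out at both time points), and for GLN2 (−0.26, against 0.0195 with quantile normalization). The causes were not tested. The labels do not say that a replicate number is shared between groups, so the numbers were not taken to pair the libraries. Of 18 same-numbered pairs 8 had within-group deviations correlated above 0.1 (−0.42 to 0.53). Pairs with different numbers were not compared, so these correlations cannot decide whether the numbers pair the libraries.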
